A study of Drosophila melanogaster with 9 samples.

Results

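The genes described here are 40 guidance ligands, guidance receptors and wiring adhesion proteins of Drosophila, taken by name from a list. Of the 40 genes, 38 were matched to a row among the 16364 genes counted. The remaining 2, Sema5c and Fas1, could not be matched by identifier and were not analysed here. All 38 matched genes passed the expression filter that kept 10193 genes for testing.

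Axon guidance proteins are secreted or membrane-bound cues and the receptors that read them at the tip of a growing axon. In the fly embryo, Slit acts through Robo receptors to keep axons away from the midline, Netrins attract through Frazzled and repel where Unc-5 is present, and semaphorins, Ephrin and Wnt5 act through plexins, Eph and Ryk-type receptors. Dscam proteins, teneurins, leucine-rich repeat proteins and receptor tyrosine phosphatases take part in the matching of neurites and in synapse formation.

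The cells were intermediate neural progenitors (INPs), which arise from type II neuroblasts of the larval brain and pass through a D+, then a Grh+ and then an Ey+ temporal state before their lineage ends. Wandering larvae of the last instar carried UAS-cd8::tdTomato driven by erm-GAL4, a driver active in INPs, together with a GFP fusion of Dichaete (D), Grainyhead (Grh) or Eyeless (Ey). The D fusion was made in the endogenous locus, whereas the grh and ey fusions are additional gene copies on inserted BAC clones. Each state had 3 libraries from 6000 to 7000 sorted cells, all called wild-type and all from larvae kept at 29 °C for 5 days after egg-laying at 25 °C.

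Counts on genes ranged from 11266164 to 23184025 per library. The libraries went with their labels, since D lay between 241 and 394 normalised RPM in D+ libraries and at most 73.2 elsewhere, grh was highest in the Grh+ libraries and ey in the Ey+ libraries. The margin for grh was small, at 522 in the lowest Grh+ library against 516 in Ey+ replicate 1. Counts per gene do not separate the additional grh and ey copies from the endogenous genes. The ey transcript was also high in Grh+ libraries, between 427 and 579 normalised RPM, against at most 20.1 in D+ libraries. The library names give 1 sequencing flow cell for the D+ libraries and another for the 6 Grh+ and Ey+ libraries, so flow cell and state cannot be told apart in any comparison with D+ INPs. Each state also came from its own GFP fusion line. Fly line and state therefore cannot be told apart in any comparison, including that of Ey+ with Grh+ INPs. Nothing states that the 3 libraries of a state came from separate sets of larvae, and p-values measure the spread between these libraries, which may be technical.

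Levels are given as normalised RPM, a gene's share of the TMM-scaled library size on the usual reads-per-1e+06 (RPM) scale, where TMM is a factor that aligns the bulk of genes between libraries. Fold changes are log2 values of the later over the earlier state from edgeR's quasi-likelihood test, with p-values adjusted by the Benjamini-Hochberg method over all 10193 genes. Each standard error (SE) was derived as the absolute log2 fold change over the square root of that test's F statistic. A gene was called changed if its adjusted p was under 0.05, its log2 fold change was above 1 or under -1, and its mean exceeded 10 RPM in 1 state or more. In a bulk library, fewer cells that express a gene and less RNA per cell cannot be told apart.

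Reads of guidance genes were found throughout the libraries of sorted progenitors. All 38 had reads in every library, 25 lay above 10 normalised RPM in all 9 libraries, and only comm2 and NetA stayed under 10 in each of them. The matching shares of all genes were not computed. In D+ replicate 2, robo3 and Drl-2 had only 8 reads each. The neuron markers nSyb, brp and Syt1 also had reads in every library, so reads alone do not place a transcript in the progenitors. Because long transcripts collect more reads, levels of different genes were compared per kb of exon, with the exons of all isoforms merged. On that scale Sema2a, a secreted semaphorin, was highest at 105.8 normalised RPM per kb over all libraries. It was followed by Sema1b at 75.6, Eph at 70.6, unc-5 at 69.2 and otk at 60.9, and the lowest was Dscam3 at 0.48. The order differed by state, with unc-5 at 126 normalised RPM per kb ahead of Sema2a at 80.2 and Eph at 61.6 in D+ INPs, and Sema2a at 91.2 ahead of Sema1b at 86.0 and otk at 73.1 in Grh+ INPs. In Ey+ INPs Sema2a at 146 came before Eph at 113, a mean that Ey+ replicate 1 dominates, and Sema1b at 82.8. The members have more exon sequence than most genes, with a median merged exon length of 6.36 kb against 2.08 kb over all genes tested. For a gene with many isoforms, the merged length can exceed that of any single transcript.

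**Figure D1:**
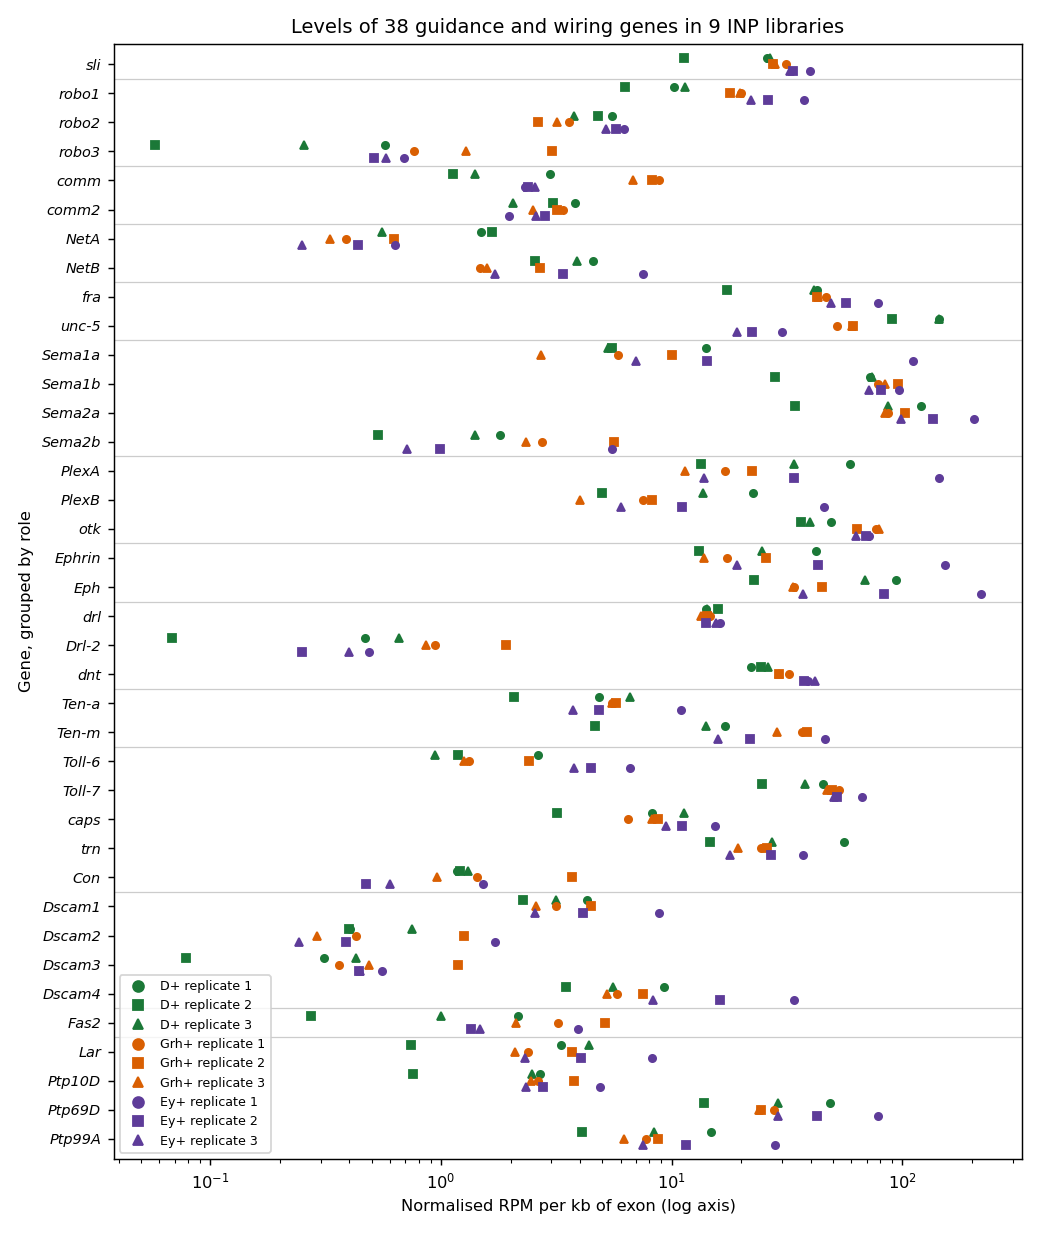
Level of each of the 38 genes in each library, as normalised RPM per kb of exon on a log axis; green, orange and purple mark D+, Grh+ and Ey+ INPs, and circle, square and triangle mark replicates 1, 2 and 3. Sema2a, Sema1b, Eph, unc-5 and otk lie farthest to the right on average, unc-5 moves leftward from D+ to Ey+, and the D+ replicate 2 square and the Ey+ replicate 1 circle often lie at the ends of a row.

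Against D+ INPs, Grh+ INPs had more robo1 and comm RNA and less unc-5 RNA. These 3 of the 38 genes were called changed, 2 higher and 1 lower, where 1.73% of all genes tested were called higher and 1.43% lower. Another gene, otk, passed the adjusted p but not the fold threshold. The libraries of the 2 states did not overlap for 13 of the 38 members (34.2%), 11 higher and 2 lower in Grh+, against 29.6% of all genes tested. The median log2 fold change was 0.13 over the members and 0.00 over all genes.

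From Grh+ to Ey+ INPs no member was called changed by edgeR, where 0.0687% of all genes were called higher and 0.167% lower. At an unadjusted p under 0.05, 13 of the 38 members differed, against 859 of all genes (8.43%). DESeq2 called 4 members, comm and unc-5 lower and Toll-6 and Dscam4 higher in Ey+, against 168 of all genes (1.65%). The libraries did not overlap for 13 members (34.2%), 9 higher and 4 lower in Ey+, against 19.7% of all genes. The members' median log2 fold change was 0.26, against -0.03 over all genes. Without Ey+ replicate 1 these medians were 0.06 and -0.04, and with library size as the only scaling -0.05 and -0.29.

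Between the end states, robo1 and Toll-6 were higher and unc-5 was lower in Ey+ than in D+ INPs. These were again 3 of 38 members, where 1.65% of all genes were called higher and 2.31% lower in Ey+. The genes otk and dnt passed the adjusted p with smaller fold changes. For 9 members (23.7%) the libraries did not overlap, 8 higher and 1 lower in Ey+, against 29.2% of all genes. The median log2 fold change was 0.71 over the members and -0.02 over all genes, and 32 of the 38 values were positive. Without Ey+ replicate 1 the median over the members was 0.26 and 25 values were positive, and without D+ replicate 2 they were 0.44 and 31. The 3 comparisons share libraries and are not independent of each other.

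**Figure D2:**
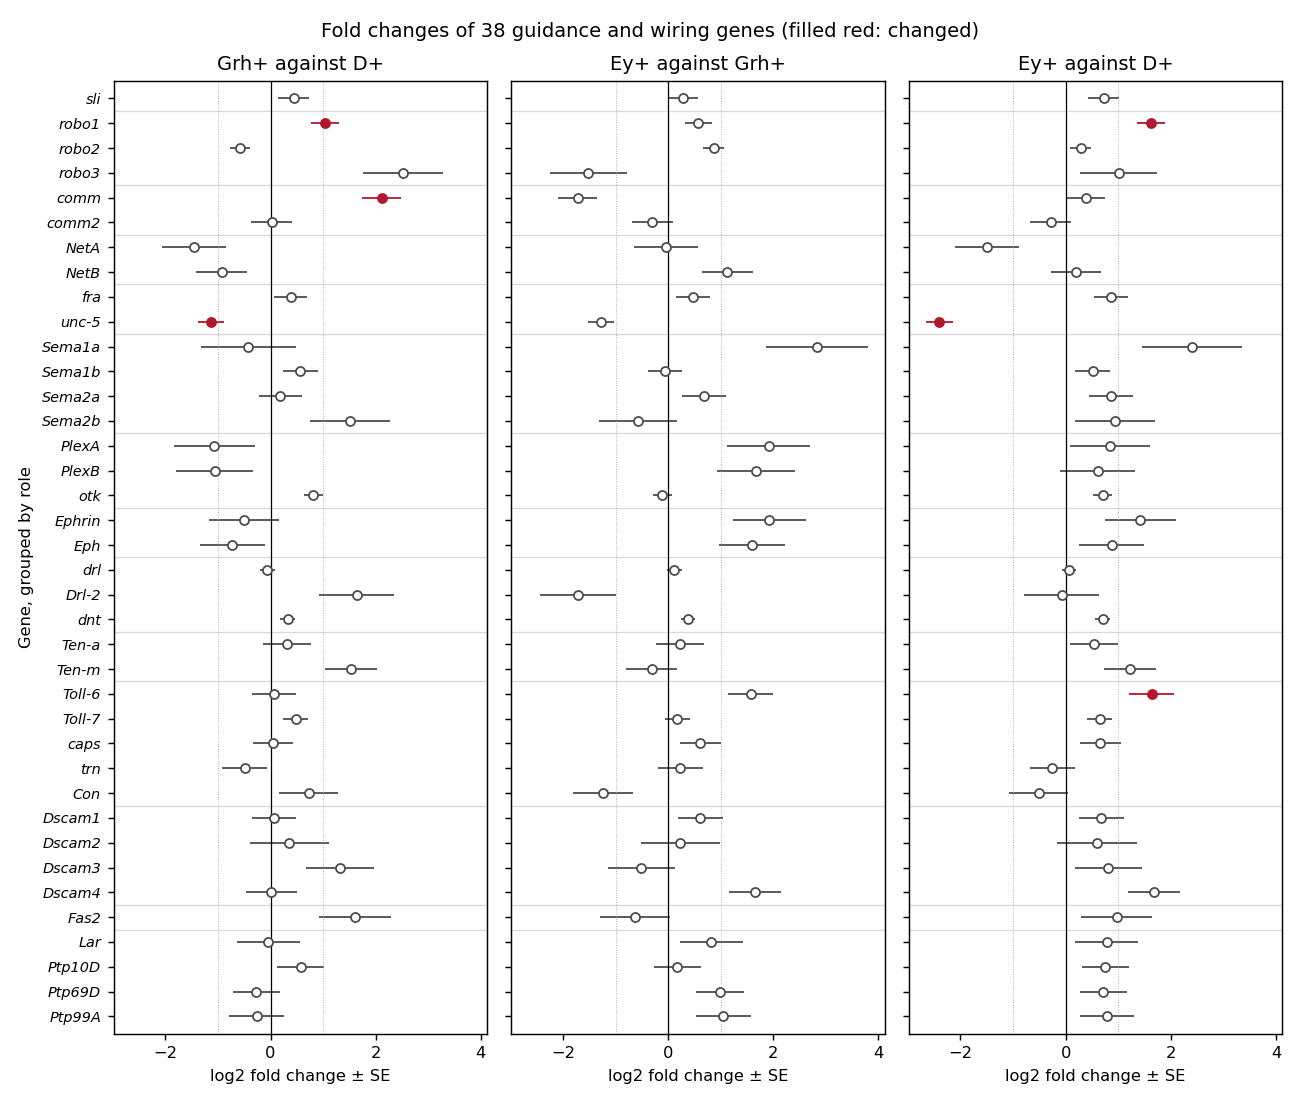
Log2 fold change (horizontal axis) with its standard error for each of the 38 genes in the 3 comparisons, from the edgeR model over 9 libraries; filled red points passed all 3 thresholds and dotted lines mark a log2 fold change of 1 in either direction. The red points are robo1, comm and unc-5 in Grh+ against D+, none in Ey+ against Grh+, and robo1, unc-5 and Toll-6 in Ey+ against D+.

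The clearest fall among the members was that of unc-5 (FBgn0034013), the receptor through which Netrin repels, at 2R:15340472-15368300 on the plus strand of BDGP6.54. It measured 756, 469 and 757 normalised RPM in D+ replicates 1 to 3, 272, 318 and 315 in the Grh+ libraries, and 157, 117 and 100.2 in the Ey+ libraries. Every D+ library was above every Grh+ library, and every Grh+ library above every Ey+ library. The log2 fold change was -1.13 (SE 0.25, adjusted p 0.0302, edgeR) from D+ to Grh+ and -2.40 (SE 0.26, adjusted p 0.00118) from D+ to Ey+. The step from Grh+ to Ey+ was -1.27 (SE 0.25) with an adjusted p of 0.0845. The change from D+ to Ey+ was called under all 18 alternatives run, with log2 fold changes of -2.67 to -2.27. The call from D+ to Grh+ was lost on leaving out D+ replicate 3, Ey+ replicate 2 or any 1 of the Grh+ libraries, with values between -1.18 and -1.01 and adjusted p from 0.0729 to 0.161. It was also lost with library size only (-0.98, adjusted p 0.0544) and with the replicate number as a block (-1.10, adjusted p 0.0675), so that 7 of 18 alternatives ended it. Of its exon length, 4.34% overlaps Pms2 on the other strand, and the counting did not use strand.

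The other Netrin receptor, the attractive receptor fra (Frazzled), went the other way in level. It measured 270.4, 109.9 and 261 normalised RPM in D+, 293, 269.9 and 271 in Grh+ and 495, 358 and 310.1 in Ey+ libraries. The Ey+ libraries were above all others, while Grh+ replicate 2 lay below D+ replicate 1. No comparison of fra was called, with log2 fold changes of 0.38 (SE 0.32) from D+ to Grh+ and 0.86 (SE 0.32, adjusted p 0.128, edgeR) from D+ to Ey+. The balance of the 2 receptors was then computed within each library, which leaves the scaling between libraries out, after their values had been seen. Per kb of exon, the level of unc-5 over that of fra was 3.37, 5.16 and 3.51 in D+ replicates 1 to 3. It was 1.12, 1.42 and 1.40 in the Grh+ libraries and 0.383, 0.394 and 0.390 in the Ey+ libraries. The states did not overlap, and per kb unc-5 exceeded fra in all D+ and Grh+ libraries and lay under it in all Ey+ libraries. Without division by exon length, unc-5 lay below fra in Grh+ replicate 1, at 272 against 293 normalised RPM. Which receptor was the higher in Grh+ INPs therefore depends on the exon lengths used.

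Their ligands were low. NetB, the more abundant Netrin, measured 37.2, 20.8 and 31.8 normalised RPM in D+, 12.01, 22.0 and 12.9 in Grh+ and 61.1, 27.5 and 14.0 in Ey+ libraries. The states overlapped in each pairing. NetA stayed between 0.836 and 5.57 in all libraries, and neither Netrin was called in any comparison by the main edgeR model. NetB was called from D+ to Grh+ when each library's slope on exon length was removed.

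In the Slit pathway, the receptor robo1 (FBgn0005631), which mediates repulsion from Slit, rose at 2R:22692524-22700970 on the minus strand. Its level was 69.6, 42.7 and 77.6 normalised RPM in D+, 135, 121 and 134 in Grh+ and 255, 178 and 150.4 in Ey+ libraries. The 3 states formed separate ranges in ascending order. Expressed as a log2 fold change, the rise was 1.04 (SE 0.26, adjusted p 0.0473, edgeR) from D+ to Grh+ and 1.62 (SE 0.27, adjusted p 0.00948) from D+ to Ey+. The step from Grh+ to Ey+ was 0.58 (SE 0.26, adjusted p 0.60) and was not called. The difference between Ey+ and D+ was called under all 18 alternatives run, with an adjusted p of at most 0.0479. The call from D+ to Grh+ was lost under 12 of 18 alternatives, 8 of them the removal of 1 library, with adjusted p up to 0.173. Those 8 libraries were every one but Ey+ replicate 1, and the log2 fold changes without them were 0.84 to 1.23.

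The Slit ligand sli had the same order of states, at 249.8, 108 and 257 normalised RPM in D+, 302, 264 and 270.1 in Grh+ and 381, 324 and 313 in Ey+ libraries. D+ replicate 2 was far below the others, and the states did not overlap at either step. None of its fold changes was called, the largest being 0.73 (SE 0.30, adjusted p 0.152, edgeR) from D+ to Ey+. From Grh+ to Ey+ its log2 fold change of 0.28 became -0.00 when libraries were scaled by their size only.

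The Robo paralogs had other orders. robo2 was lowest in Grh+ INPs, with 22.3, 16.3 and 19.7 normalised RPM against 34.0, 29.7 and 23.4 in D+ and 38.5, 35.7 and 32.3 in Ey+ libraries. Its Grh+ libraries were below all others, although the log2 fold changes of -0.58 (SE 0.20, adjusted p 0.110) into Grh+ and 0.87 (SE 0.20, adjusted p 0.135) out of it did not pass in edgeR. The genes lncRNA:CR44898 and asRNA:CR44897 overlap 20.0% and 22.9% of the exon length of robo2. Reads from those parts may not have been assigned to robo2.

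robo3, which in the embryo sets the lateral position of axons, was highest in Grh+ INPs at a low level. It measured 5.44, 21.6 and 9.12 normalised RPM there, against 4.06, 0.409 and 1.80 in D+ and 4.90, 3.66 and 4.12 in Ey+ libraries. The Grh+ libraries were above all others, but spread 3.98-fold among themselves. The log2 fold change of 2.52 (SE 0.75) from D+ to Grh+ had an adjusted p of 0.0779 in edgeR and was called by DESeq2.

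comm (FBgn0010105), whose protein sorts Robo1 away from the growth cone surface at the embryonic midline, peaked in the middle state. It lies at 3L:15721511-15728430 on the minus strand and measured 22.0, 20.6 and 17.0 normalised RPM in Grh+, against 7.43, 2.81 and 3.51 in D+ and 5.77, 5.91 and 6.35 in Ey+ libraries. The 3 Grh+ libraries were far above the 6 others. The log2 fold change was 2.11 (SE 0.37, adjusted p 0.0137, edgeR) from D+ to Grh+ and -1.72 (SE 0.37, adjusted p 0.107) from Grh+ to Ey+. The rise was called under 15 of 18 alternatives and lost without any 1 Grh+ library, with values of 2.02 to 2.19 and adjusted p of 0.0583 to 0.0869. The decrease was called under 5 of 18 alternatives, DESeq2 and library size only among them. Its relative comm2 showed no such peak, at 3.79 to 5.11 normalised RPM in Grh+ and 2.98 to 5.79 elsewhere.

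Over the 38 genes, 3 were ordered upward without overlap at both steps (sli, robo1 and dnt), as were 1.52% of all genes tested. The order was downward for 1, unc-5 (0.981% of all genes), 3 were highest in Grh+ without overlap (robo3, comm and Drl-2; 5.72%), and 1 was lowest there (robo2; 0.952%). With library size as the only scaling, robo1 and unc-5 kept their stepwise order, sli, dnt and robo2 lost theirs, and Sema1b, otk and Toll-7 joined the genes highest in Grh+. The shares of all genes with that scaling were 0.549% upward, 1.69% downward, 9.31% highest and 0.0981% lowest in Grh+. Some low markers of other cells were also higher in Grh+ than in D+ libraries, as were comm, robo3 and Drl-2. The glia marker wrapper measured 3.67, 0.256 and 0.902 normalised RPM in D+, 15.7, 12.2 and 12.3 in Grh+ and 4.28, 6.86 and 8.36 in Ey+ libraries, and was called from D+ to Grh+ (log2 3.04, SE 0.76, adjusted p 0.0458, edgeR). The neuron marker VGlut, at 0.648, 3.43 and 0.902 in D+, 6.66, 14.7 and 10.6 in Grh+ and 8.87, 4.71 and 3.45 in Ey+ libraries, was called too (2.69, SE 0.68, adjusted p 0.0478). moody, another glia marker, passed the adjusted p (0.0112) but stayed under the RPM threshold, at 0.301 to 1.17 in D+, 6.79 to 7.55 in Grh+ and 6.52 to 8.19 in Ey+ libraries. Without being called, the neuron markers nSyb, brp, Syt1, Syn, fne, nrv3 and VAChT had log2 fold changes of 0.69 to 2.09 from D+ to Grh+. The glia markers repo, Gs2 and alrm had 0.68 to 1.63, also uncalled. The remaining markers fell or moved little, namely elav (-0.34), nrv2 (-0.15), Rbp9 (0.17), Rdl (0.22) and Eaat1 (0.24, all log2). The median log2 fold change was 0.77 over 11 neuron and 1.48 over 7 glia markers, with 1 of each list called. The part of neuronal or glial RNA in the values of comm, robo3 and Drl-2 was not tested.

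**Figure D3:**
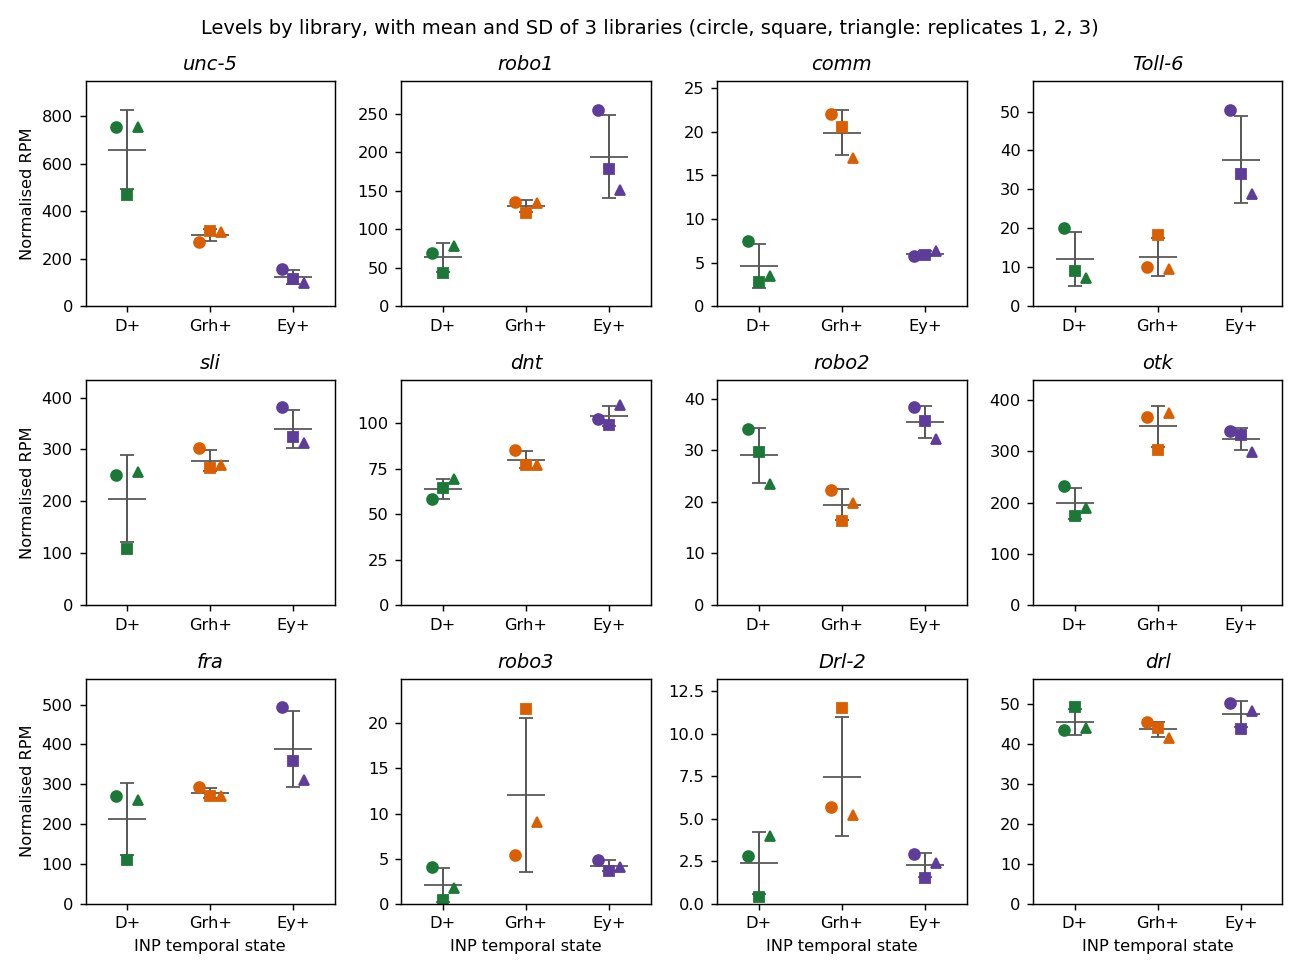
Normalised RPM (vertical axes, from 0) of 12 members in D+, Grh+ and Ey+ INPs, with each library as a point (circle, square and triangle for replicates 1, 2 and 3) and the mean and SD of 3 libraries as bars. unc-5 is ordered downward and robo1, sli and dnt upward without overlap, comm, robo3 and Drl-2 peak in Grh+ INPs, robo2 dips there, and drl stays between 41.6 and 50.3.

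The Ryk-type receptors, which act in Wnt signalling, behaved differently from one another. dnt had an upward order with little spread, at 58.1, 64.1 and 69.2 normalised RPM in D+, 85.2, 77.2 and 77.2 in Grh+ and 102, 99.2 and 109.9 in Ey+ libraries. The states did not overlap, and the log2 fold change from D+ to Ey+ was 0.70 (SE 0.14, adjusted p 0.0213, edgeR), under the fold threshold. The steps were 0.32 into Grh+ and 0.38 out of it, and neither was called.

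drl, the founding member that steers axons to the anterior commissure, lay between 41.6 and 50.3 normalised RPM in all 9 libraries. Its log2 fold changes were -0.06, 0.12 and 0.06 (SE 0.14 each). These were the smallest standard errors among the 38 genes. Drl-2 was low and peaked in Grh+, at 5.68, 11.5 and 5.20 normalised RPM, against 2.81, 0.409 and 3.96 in D+ and 2.92, 1.502 and 2.40 in Ey+ libraries. The Grh+ libraries were above all others, and no comparison was called, with log2 fold changes of 1.64 (SE 0.72) into and -1.72 (SE 0.72) out of the Grh+ state.

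otk, a transmembrane co-receptor linked to plexin and Wnt signalling, was higher after the D+ state. It measured 233, 173 and 189.6 normalised RPM in D+, 368, 303 and 376 in Grh+ and 340.2, 331 and 299 in Ey+ libraries. All 6 later libraries were above the D+ libraries. On the log2 scale otk differed by 0.81 (SE 0.18, adjusted p 0.0336, edgeR) from D+ to Grh+ and 0.70 (SE 0.18, adjusted p 0.0461) from D+ to Ey+, both under the fold threshold. These are differences from the state whose libraries were sequenced on another flow cell.

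The plexins, the semaphorin receptors, and the Ephrin pair stood out in 1 library. PlexA measured 628, 142 and 359.7 normalised RPM in D+, 181, 235 and 121 in Grh+ and 1523, 360.2 and 146 in Ey+ libraries. Ey+ replicate 1 stood far above the other libraries, and all 3 states overlapped. Eph, the Ephrin receptor, had the same form, with 538, 131 and 394 in D+, 194, 257 and 193 in Grh+ and 1262, 478 and 212 in Ey+ libraries. PlexB ranged from 28.3 to 321 and Ephrin from 69.7 to 809, each highest in Ey+ replicate 1.

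From Grh+ to Ey+ these 4 genes had log2 fold changes of 1.60 to 1.92 with standard errors of 0.63 to 0.79, and no comparison was called. Without Ey+ replicate 1 the values were 0.39 to 0.73. From D+ to Ey+ the log2 fold change of PlexA went from 0.85 to -0.53 without that library, that of PlexB from 0.61 to -0.64, that of Eph from 0.88 to -0.00 and that of Ephrin from 1.42 to 0.26. The 4 genes, PlexA, PlexB, Ephrin and Eph, are the members that lie on the small chromosome 4.

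Sema1a, a transmembrane semaphorin that binds PlexA, spread most of all. It measured 144, 56.2 and 53.9 normalised RPM in D+, 59.3, 102 and 27.5 in Grh+ and 1129.8, 145 and 70.9 in Ey+ libraries. Its log2 fold change of 2.83 (SE 0.96, adjusted p 0.410, edgeR) from Grh+ to Ey+ was the largest of any member and fell to 0.79 without Ey+ replicate 1. PlexA and Sema1a were given by library, and PlexB and Ephrin by range and fold change, after their values had been seen. The same holds for fra and robo2, which were given by library.

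The secreted Sema2a was 501, 142 and 360.5 normalised RPM in D+, 361, 428 and 352 in Grh+ and 853, 564 and 411 in Ey+ libraries. The ranges of all 3 states overlapped. Sema2b, its close relative, measured 14.1, 28.9 and 12.1 in Grh+, all above the 9.33, 2.76 and 7.21 of D+, and 28.4, 5.11 and 3.68 in Ey+ libraries. For Grh+ over D+ the value was 1.51 on the log2 scale (SE 0.76, adjusted p 0.266, edgeR). Sema1b lay between 128 and 442 and was not called in any comparison.

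Among the leucine-rich repeat proteins, Toll-6 (FBgn0036494), a Toll-family receptor that also takes part in synaptic partner matching, was the only member other than the Slit and Netrin receptors called between the end states. It lies at 3L:15336692-15344315 on the plus strand. Its level was 20.0, 9.05 and 7.16 normalised RPM in D+, 10.1, 18.2 and 9.55 in Grh+ and 50.3, 33.9 and 28.7 in Ey+ libraries. The Ey+ libraries were above all others, and the D+ and Grh+ ranges overlapped. The log2 fold change from D+ to Ey+ was 1.64 (SE 0.42, adjusted p 0.0457, edgeR), and from Grh+ to Ey+ it was 1.57 (SE 0.42, adjusted p 0.231). The call was lost under 10 of 18 alternatives. It was lost without any 1 library other than D+ replicate 1, with log2 fold changes of 1.39 to 1.80 and adjusted p of 0.0524 to 0.158, with library size only (1.47, adjusted p 0.0570) and with the 6 libraries of the 2 states (1.61, adjusted p 0.103).

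Toll-7, the most abundant of this group per kb, measured 289, 157 and 243 normalised RPM in D+, 341, 315 and 302 in Grh+ and 426, 331 and 322 in Ey+ libraries. The D+ libraries were below all others, while Grh+ and Ey+ overlapped. Ey+ over D+ gave a log2 fold change of 0.65 (SE 0.24, adjusted p 0.121, edgeR). caps, trn and Con ranged from 15.4 to 74.1, from 49.2 to 188 and from 2.80 to 21.9, and none was called.

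Of the Dscam family, cell adhesion proteins that let neurites recognise one another, Dscam4 was highest per kb of merged exon. Without that division Dscam1 was higher, at a mean of 104 normalised RPM over all libraries against 83.7. The exons of Dscam1, merged over all isoforms, make up 26.5 kb, against 7.91 kb for Dscam4. Which of these genes ranked higher therefore depends on the exon lengths used. Dscam4 measured 73.2, 27.5 and 43.8 normalised RPM in D+, 45.6, 59.3 and 41.4 in Grh+ and 268, 129 and 65.6 in Ey+ libraries. The Ey+ libraries were above the Grh+ ones, and the lowest Ey+ library lay under the highest D+ library. On the log2 scale the change was 1.66 (SE 0.49, adjusted p 0.311) from Grh+ to Ey+ and 1.68 (SE 0.49, adjusted p 0.0669) from D+ to Ey+ in edgeR, and DESeq2 called both. Without Ey+ replicate 1 the first of these was 1.00 (adjusted p 0.880, edgeR). Dscam1 ranged from 60.2 to 234, Dscam2 from 3.12 to 22.0 and Dscam3 from 0.665 to 10.1. The counts are per gene, so that isoforms of Dscam1 were not told apart.

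The teneurin Ten-m, a homophilic partner-matching protein, measured 224, 61.2 and 184 normalised RPM in D+, 483, 506 and 373 in Grh+ and 606, 287 and 207 in Ey+ libraries. The Grh+ libraries were above the D+ ones, whereas the Ey+ libraries spanned both. Grh+ over D+ gave a log2 fold change of 1.54 (SE 0.50, adjusted p 0.0963, edgeR) and was called by DESeq2, with library size only and with the slope on exon length removed. Ten-a lay between 35.2 and 187.

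Fas2, an immunoglobulin adhesion protein of axon bundles, measured 15.8, 1.99 and 7.31 normalised RPM in D+, 23.5, 37.4 and 15.4 in Grh+ and 28.7, 9.82 and 10.8 in Ey+ libraries. All states overlapped. For Grh+ over D+ its value was 1.60 on the log2 scale (SE 0.68, adjusted p 0.191, edgeR).

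The 4 receptor tyrosine phosphatases, which act in motor axon choice and photoreceptor targeting, were not called in any comparison. Ptp69D, the most abundant per kb, measured 252, 71.1 and 149.8 normalised RPM in D+, 143, 126 and 124 in Grh+ and 406, 220.5 and 149 in Ey+ libraries. Its Ey+ libraries were above the Grh+ ones, and the log2 fold change was 0.98 (SE 0.45, adjusted p 0.614, edgeR). Lar ranged from 7.67 to 84.5, Ptp10D from 6.59 to 42.3 and Ptp99A from 37.4 to 256, each lowest in D+ replicate 2 and highest in Ey+ replicate 1. Lar shares 83.6% of its exon length with CG46244 on the same strand, which had no counts in any library, and 17.2% of Ptp99A overlaps CG2321 on the other strand, so that their levels are uncertain.

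These rankings recurred across the members. Of the 38 genes, 35 were highest among Ey+ libraries in replicate 1, and 30 were lowest among D+ libraries in replicate 2. Over all 9 libraries, 25 members were highest in Ey+ replicate 1 and 25 were lowest in D+ replicate 2. The median ratio of the highest to the lowest library was 2.08 within Ey+, 2.90 within D+ and 1.39 within Grh+. Relative to each gene's own mean of log2 levels, the median member deviated by 1.02 in Ey+ replicate 1 and by -1.19 in D+ replicate 2, and the 4 members on chromosome 4 by 2.29 and -1.06.

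The same libraries stood apart for genes of similar build. Among the 829 genes with exons at least as long as those of the median member, the median deviation was 0.81 in Ey+ replicate 1 and -0.91 in D+ replicate 2. Among all 96 genes tested on chromosome 4 it was 1.31 and -1.20, whereas over all genes it was -0.04 and -0.05. With each library's slope on exon length removed, the median over the members from D+ to Ey+ was 0.36 instead of 0.71, and 27 instead of 32 values were positive. The summed level of 11 neuron markers was 238 to 1061 normalised RPM in D+, 407 to 923 in Grh+ and 706 to 4190 in Ey+ libraries, lowest in D+ replicate 2 and highest in Ey+ replicate 1, where elav alone made up 3652. Single markers ranked otherwise, since 4 of the 11 (elav, brp, fne and VAChT) were highest in Ey+ replicate 1 and 7 in Grh+ replicate 2, while 7 were lowest in D+ replicate 2. All 11 markers had reads in 8 libraries and 10 of them in D+ replicate 2. The part of transcript length, neuronal RNA or the single libraries in the members' values was not tested. The 7 glia markers summed to 902 to 1858 and the 9 neuroblast and INP markers to 4904 to 8642 normalised RPM over all libraries. The glia sum was mostly nrv2 (406 to 904) and Eaat1 (486 to 996). By contrast, repo, moody, Gs2, alrm and wrapper stayed at or under 16.1 in every library, so the sum hides their changes. In Ey+ replicate 1, where the neuroblast and INP sum was highest, CycE alone made up 2513. That sum hides changes too. Within it, erm was called lower from D+ to Grh+ (log2 -1.11, adjusted p 0.0160, edgeR) and from D+ to Ey+ (-2.19, adjusted p 0.000664). From D+ to Ey+ insc was called lower (-1.04, adjusted p 0.0105) and CycE higher (1.89, adjusted p 0.0323). No other marker of that list was called in any comparison.

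**Figure D4:**
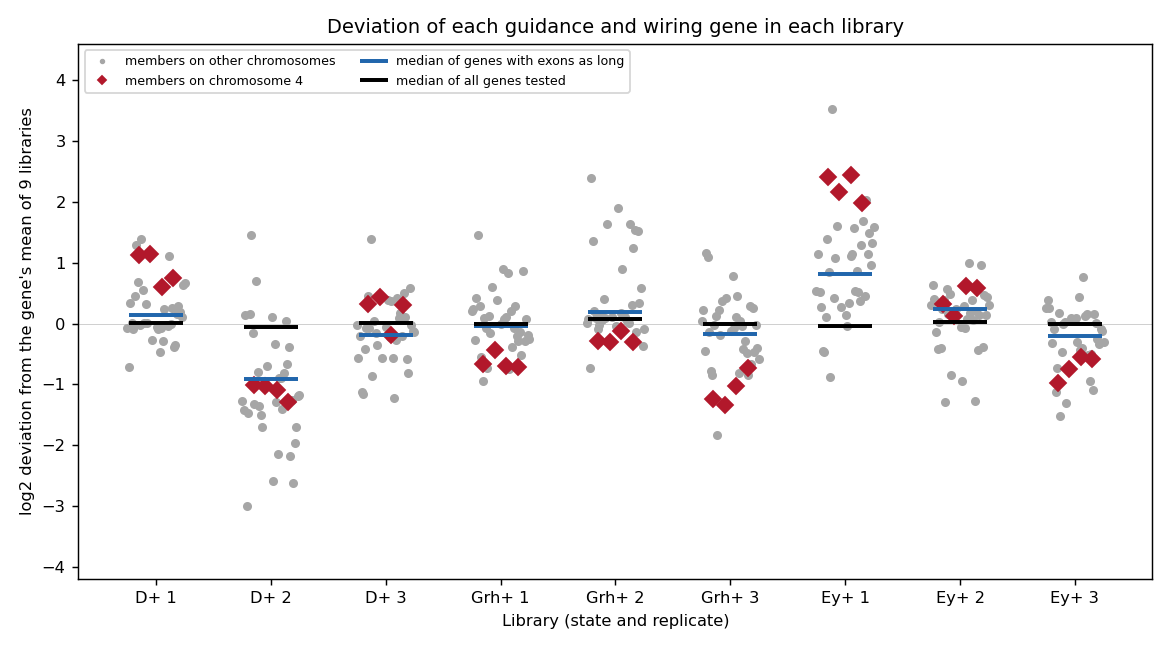
Log2 deviation of each member from its own mean over 9 libraries (vertical axis) in each library, with red diamonds for the 4 members on chromosome 4, grey points for the 34 others, and bars for the medians of the 829 genes with exons as long as the median member (blue) and of all genes tested (black). The members sit mostly above 0 in Ey+ replicate 1 and mostly below 0 in D+ replicate 2, as does the blue bar, while the black bar stays near 0.

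The companions of these receptors, 36 listed ligands, co-receptors, adhesion proteins and cytoplasmic effectors, were tested in the same model. The companion 18w was not matched, and 34 of the others passed the filter. Of these 34, 1 changed from D+ to Grh+, where 3.16% of all genes did, none from Grh+ to Ey+ (0.235%) and 1 from D+ to Ey+ (3.95%). The first was dlp, a glypican that takes part in Wnt and Slit signalling, with 112.7, 62.4 and 111 normalised RPM in D+ and 48.1, 49.5 and 40.5 in Grh+ libraries. Its log2 fold change was -1.05 (SE 0.23, adjusted p 0.0292, edgeR), and all Grh+ libraries were below all D+ libraries. The call was lost without D+ replicate 1 or 3, any 1 Grh+ library, or Ey+ replicate 2 or 3, with log2 fold changes of -1.09 to -0.90. The other was shot, a spectraplakin that links actin and microtubules in growth cones, with 173, 67.2 and 85.0 in D+ and 606, 291 and 199.6 in Ey+ libraries. Its log2 fold change was 1.75 (SE 0.46, adjusted p 0.0476, edgeR), the call was kept only without D+ replicate 1 or Ey+ replicate 3, and without Ey+ replicate 1 the value was 1.21. The companions' median log2 fold changes were 0.29, 0.28 and 0.49 in the 3 comparisons, against 0.13, 0.26 and 0.71 for the receptors and ligands above and 0.00, -0.03 and -0.02 for all genes.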

How the data were processed

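For each of the 3 states, 3 libraries of sorted INPs were made by DigiTag, with oligo-dT priming and random octamers as molecular tags. Per the submitters' notes and the study's methods, ribosomal reads were removed with BWA 0.7.12, the remainder was aligned with TopHat2 2.1.1 to FlyBase r6.12, and duplicates were marked by tag. Small RNA genes and pseudogenes were masked with bedtools 2.26.0, and reads were counted per gene with HTSeq 0.6.1 without strand. The deposited values are raw counts for 16364 genes, made by the authors without normalization. Oligo-dT priming of little RNA can leave long transcripts unevenly covered, which was not examined here. Summary lines that name no gene held 34.7% to 53.2% of each library's counts and were left out.

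The model was fitted in edgeR 4.0.16 (limma 3.58.1, R 4.3.3). The TMM factors were 0.741 to 1.13, genes were filtered by edgeR's filterByExpr, and all 9 libraries entered 1 quasi-likelihood model with a coefficient per state. RPM used for the threshold was not TMM-scaled. Symbols matched 16208 of 16364 identifiers. BDGP6.54 gave positions and exon lengths; it shares its assembly with FlyBase r6.12 but is a later annotation release. The procedure was run on simulated counts that held no outlying library and no slope on exon length, so that run does not bear on those features.

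Alternatives were DESeq2 1.42.0, its size factors, library size only, no filter, at least 10 counts in every library, the 6 libraries of the states compared, the replicate number as a block, no RPM threshold, each library left out, and removal of each library's slope on exon length by loess (span 0.5, centred on its median). No pair of libraries of the same state was identical or agreed within sampling noise. Depth covers counting error only, and precision was taken from the spread between libraries.

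The members and the lists of companions and markers were chosen with earlier results of these data known. Every member is accounted for. Values in each library are given for members called changed, for members with an absolute log2 fold change over 1 and no overlap between the states compared, and for the member of each role group with the highest level per kb. Other members are given by range, and companions are named only if changed.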

Additional observations from a re-analysis of the deposited data

How the results depend on the processing

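Of 896 alternative values for 50 comparisons of named members, 6 changed sign, 32 lost a call and 18 gained one. Library size only shifted the median of all genes to 0.16, -0.29 and -0.14 for Grh+ against D+, Ey+ against Grh+ and Ey+ against D+, from 0.00, -0.03 and -0.02. With that scaling sli had a log2 fold change of -0.0034 from Grh+ to Ey+. Leaving out 1 library gave -0.93 to 0.19 for Sema1a and -0.83 to 0.0062 for Ephrin from D+ to Grh+ (positive without D+ replicate 1), and -0.53 to 1.44 for PlexA, -0.64 to 1.18 for PlexB and -0.0006 to 1.32 for Eph from D+ to Ey+ (negative without Ey+ replicate 1).

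The 3 members called from D+ to Grh+ became 5 with DESeq2 (robo3 and Ten-m added), 5 with the slope on exon length removed (robo3, NetB and Ten-m added, robo1 lost on its fold change of 0.87), and 0 to 3 with 1 library left out. The count was 0 without any 1 Grh+ library and 1 without D+ replicate 3 or Ey+ replicate 2. The 0 called from Grh+ to Ey+ became 2 with library size only and 2 with the 6 libraries of those states (comm and unc-5), 4 with DESeq2, 1 with the slope removed (unc-5) and 0 to 2 with 1 library left out. The cause was not tested. From D+ to Ey+ the count stayed at 2 to 4. Over all genes, 322 were called from D+ to Grh+, against 457 with DESeq2, 318 with the slope removed, 214 with the block and 53 to 505 with 1 library left out (53, 110 and 81 without Grh+ replicates 1 to 3). From Grh+ to Ey+ these were 24, against 168 with DESeq2, 96 with library size only, 141 with 6 libraries, 53 with the slope removed, 10 with the block and 3 to 72 with 1 library left out. From D+ to Ey+ they were 403, against 600 with DESeq2, 139 with 6 libraries and 107 to 657 with 1 library left out.

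No general pairing of the libraries by replicate number was seen: 3 of 9 same-numbered pairs had correlated deviations over 0.1 (range -0.257 to 0.498), and 0 of 9 libraries correlated best with its own number in both other states. With deviations taken from only 3 libraries per state, this check cannot exclude that some libraries were prepared together. The replicate block left 1 member called from D+ to Grh+ (comm), 0 from Grh+ to Ey+ and 3 from D+ to Ey+. Members near 10 RPM or below, such as robo3, Drl-2, NetA and Dscam3, rest on few reads per library.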
